A study of Homo sapiens with 6 samples.

Results

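Cancer-testis antigen genes were followed in 2 human stomach cancer lines: AGS, established from an adenocarcinoma, and HGC-27, established from an undifferentiated tumour. A gene belonged to the set if its symbol began with MAGEA, MAGEB, MAGEC, GAGE, PAGE, XAGE, SSX or CTAG, or was PASD1 or PRAME. Pseudogene-type names, in which P and digits end the symbol, and hyphenated names were left out. The symbols matched 93 genes, of which 20 had pseudogene-type names and 3 a hyphen, leaving 70 members of the 51103 genes measured. Among the names dropped was SSX2IP, a protein-coding gene that is neither a pseudogene nor a cancer-testis gene. The prefix CTAG also took in 6 CTAGE genes, which encode proteins related to MIA2 and belong to another family, so 64 members remain without them. MAGEA5 stayed in by its name, although GENCODE lists it as a transcribed pseudogene. Of the 70 members, 63 lie on the X chromosome.

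Cancer-testis genes are transcribed in male germ cells and are silent in most other adult tissues, where DNA methylation of their promoters and repressive chromatin hold them off. Many tumours transcribe some of them again, and peptides from their proteins can be recognised by T cells. Type I MAGE proteins (MAGEA, MAGEB and MAGEC) bind RING ubiquitin ligases, GAGE, PAGE and XAGE proteins are small, acidic and largely disordered, and SSX proteins are nuclear repressors.

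Polyadenylated RNA was sequenced from cells carrying a lentivirus for overexpression of NINJ1, a cell-surface protein that ruptures the plasma membrane in lytic cell death, or a negative control. Each labelled group is a line made by lentivirus in culture. Neither its clonality nor its selection is given. The 6 libraries comprise, for each line, 1 control and 2 NINJ1 replicates. Titles and file names give opposite lines for both replicate 2 libraries of NINJ1, and the file names are followed here. Whether replicates came from separate cultures is not stated, so a p-value here reflects no more than how these libraries vary, which may be technical.

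Total counts ran from 12619684 to 18175697 per library. The HGC-27 control stood apart: genes over 60% GC took 2.31% of its counts, against 9.25% to 11.3% in the other 5 libraries. NINJ1 itself stood at 1.48 FPKM in the HGC-27 control and at 6.88 and 7.53 in the HGC-27 NINJ1 libraries, but at 10.9 for the control of AGS and at 7.81 and 6.29 for its libraries labelled NINJ1. Its log2 change in HGC-27 was 1.89 and, with a correction for GC content, 0.54 (adjusted p = 3.2e-08 and 0.049, edgeR), and in AGS -0.68 and -0.58 (adjusted p = 0.015 and 0.021). The label of NINJ1 overexpression is therefore not borne out in AGS, whose libraries are called "labelled NINJ1", and the size of the rise in HGC-27 depended on the correction. Epithelial markers summed to between 135 and 208 FPKM in each library, most of it from KRT8 and KRT18. CDH1 reached at most 0.454 FPKM in a library and KRT19 at most 0.0339. The 8 markers of male germ cells summed to between 0.0541 and 0.449 FPKM, and DDX4, PRM1, PRM2, TNP1, ACR and ZPBP were listed at 0 in all 6 libraries. Blood markers summed to between 0.203 and 1.3 FPKM.

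Each line transcribed a small part of the set. An FPKM (the count scaled by gene length and by the counted reads of the library) of at least 1 in all 3 libraries was reached by 11 members in AGS and 10 in HGC-27, where 23.2% and 19.7% of all genes reached it. The lines shared 7 of these members: MAGEA1, MAGEA3, MAGEA6, PRAME, PAGE1, GAGE12H and XAGE2. AGS alone had MAGEA12, PASD1, GAGE2A and GAGE10, and HGC-27 alone had MAGEB2, MAGEA11 and GAGE1. GAGE10 missed the limit in HGC-27 through a single library (2.86, 0 and 1.98 FPKM). Its lines overlapped, with a log2 difference of 1.05 (adjusted p = 0.59, edgeR). The other 56 members passed in neither line. In these bulk libraries, fewer cells transcribing a gene and less RNA per cell cannot be told apart.

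**Figure D1:**
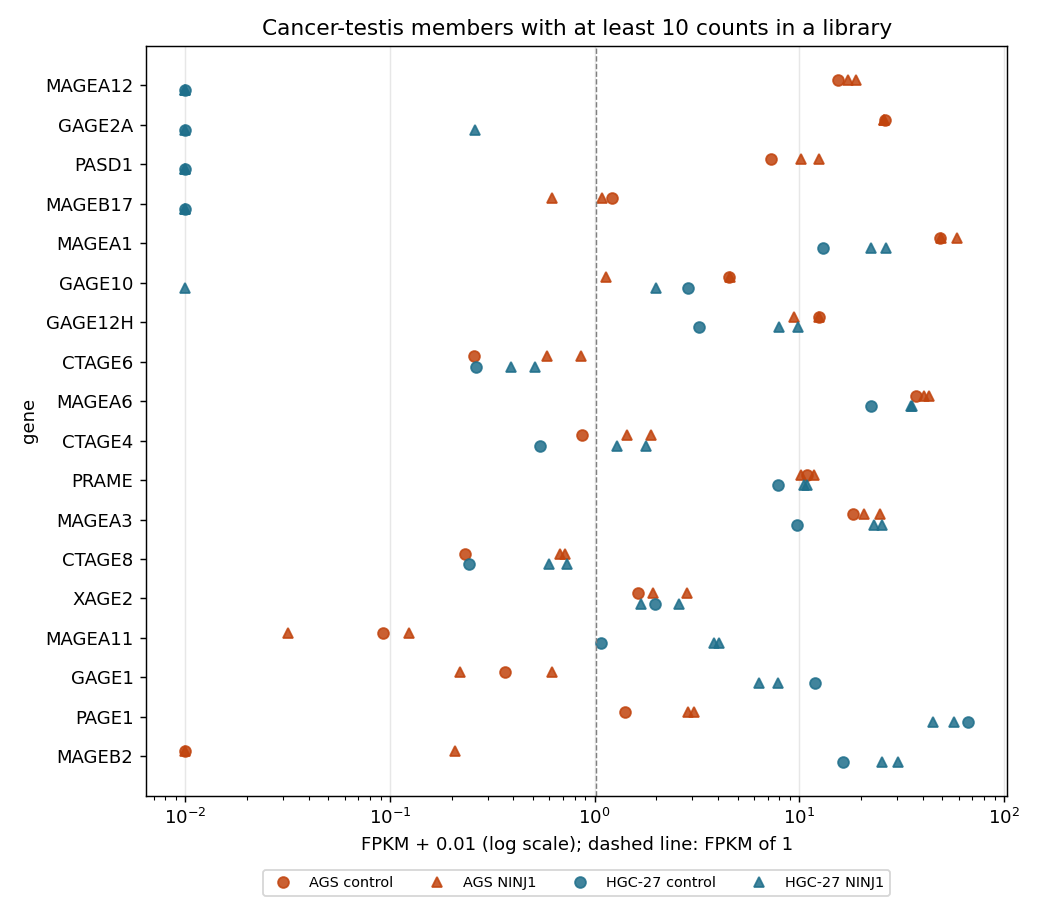
FPKM plus 0.01 on a log axis for the 18 members with at least 10 counts in a library; orange is AGS, blue is HGC-27, circles are controls and triangles NINJ1 libraries. MAGEA12, PASD1 and MAGEB17 sit at 0 in every HGC-27 library, whereas PRAME and XAGE2 overlap between lines.

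Counts were 0 in all 6 libraries for 33 members and reached at most 1 to 9 for 19. The remaining 18 had at least 10 counts in a library, and all 18 passed the filter on low counts. No member of the CTAG family (CTAG1A, CTAG1B and CTAG2) had a count. Of 8 SSX genes, 7 were at 0 and SSX1 reached at most 2 counts, and of the 3 MAGEC genes none reached 10 counts. Of 13 MAGEA genes 5 reached 10 counts, of 11 MAGEB genes 2, of 13 GAGE genes 4, of 6 PAGE genes 1 and of 5 XAGE genes 1. Where a library shows 0, 3 counts per library were taken as a floor, which allows for counting error alone.

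Counts of 0 do not carry the same weight for every member. Among the 33 members at 0, 16 had at least 90% of their 100-base words in no other gene, including MAGEA4, MAGEA8, MAGEC1, MAGEB1 and PAGE4. Another 12, such as SSX2 with SSX2B, SSX4 with SSX4B and XAGE1A with XAGE1B, had under 10%. How reads that match several genes were counted is not given in the sources used here, and its part in these zeros was not tested.

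**Figure D2:**
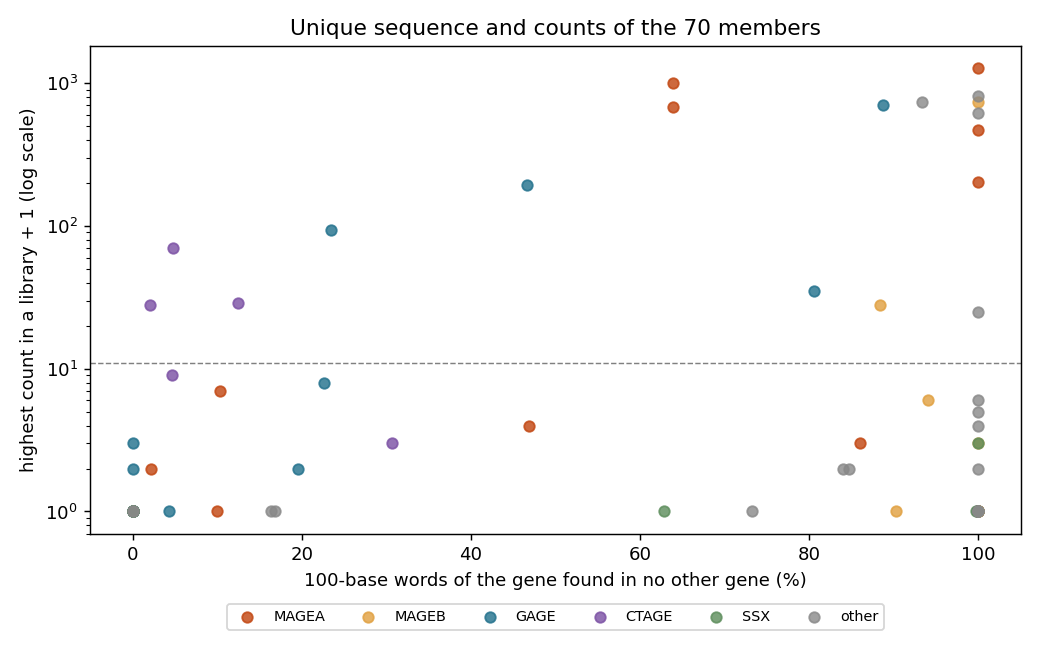
For each of the 70 members, the share of 100-base words found in no other gene (x axis, percent) and the highest count in a library plus 1 (y axis, log scale), coloured by family; many points coincide at 0 counts. The CTAGE genes with counts lie at the left, and MAGEA1, at 100%, is the highest point.

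The lines differed in 9 members, of which 3 had no count and 1 had 2 counts in HGC-27. Of the 18 tested, 5 were higher in AGS (27.8%) and 4 lower (22.2%) by edgeR's quasi-likelihood test at a Benjamini-Hochberg adjusted p under 0.05. Over all 17617 genes tested, 3.27% were higher and 2.87% lower. A member could pass the filter through the line in which it was high, so these shares describe the 18 and do not test the set. The median log2 difference was 0.23 over the 18 members (the same with members at 0 in HGC-27 set to their bounds) and 0.08 over all tested genes.

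MAGEA12, a type I MAGE gene (GRCh38 chromosome X, 152733779 to 152737669), had 15.4 FPKM in the control of AGS and 19.0 and 17.2 in its libraries labelled NINJ1. CSAG4, a pseudogene with at most 9 counts, overlaps nearly all of MAGEA12 (3843 bases of the same strand). MAGEA12 had no count in any HGC-27 library, and the groups did not overlap. AGS was at least 162-fold higher when the floor of 3 counts is put in each HGC-27 library (adjusted p = 0.0047, edgeR). PASD1, whose protein carries a PAS domain and inhibits the circadian activator CLOCK-BMAL1 (chromosome X, 151563622 to 151676739), had 7.28, 10.1 and 12.4 FPKM in AGS in the same order and no count in HGC-27. With the same floor AGS was at least 213.5-fold higher (adjusted p = 0.0047, edgeR).

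GAGE2A had 26.1, 25.8 and 26.0 FPKM in AGS, and in HGC-27 only 2 counts, both in NINJ1 replicate 2. The ratio of scaled counts was 300.0, with a 95% counting interval of 82.6 to 2480 (adjusted p = 0.0059, edgeR). MAGEB17 had 1.20, 1.08 and 0.608 FPKM in AGS and none in HGC-27, at least 7.56-fold higher in AGS with the floor (adjusted p = 0.043, edgeR). MAGEB17 overlaps an antisense gene, AC078993.1, that had 36, 30 and 23 counts in AGS and 0, 1 and 0 in HGC-27, and no strand setting is stated.

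MAGEA1, the highest member in AGS, had 48.6, 59.0 and 48.9 FPKM there and 13, 26.6 and 22.3 in HGC-27. The means were 52.2 ± 5.92 and 20.6 ± 6.93 FPKM (SD, n = 3), and the lines did not overlap. It was the called member with the smallest difference, a log2 value of 1.28 (SE 0.21, adjusted p = 0.025, edgeR). On the 4 undisputed libraries the difference was 1.35 but edgeR's adjusted p was 0.35, and over all settings tried the adjusted p ran from 9.0e-10 to 0.83.

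HGC-27 was higher for MAGEB2, PAGE1, GAGE1 and MAGEA11. MAGEB2 (chromosome X, 30215560 to 30220089) had 16.3, 25.4 and 30.3 FPKM in HGC-27, in the order control, replicate 1 and replicate 2, and 0, 0.197 and 0 in AGS. No library of one line reached the other. The log2 difference was -8.58 (SE 0.84, adjusted p = 0.0065, edgeR). PAGE1 (chromosome X, 49687450 to 49695993), the highest member in HGC-27, had 66.8, 44.8 and 56.9 FPKM there and 1.40, 2.86 and 3.06 in AGS. The means were 56.1 ± 11 and 2.44 ± 0.905 FPKM (SD, n = 3). The log2 difference was -4.66 (SE 0.47, adjusted p = 0.0070, edgeR).

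MAGEA11, whose protein is a coregulator of the androgen receptor, had 1.06, 4.03 and 3.84 FPKM in HGC-27 and 0.0828, 0.114 and 0.0217 in AGS. The log2 difference was -5.22 (SE 0.63, adjusted p = 0.011, edgeR). GAGE1 had 11.9, 7.87 and 6.37 FPKM in HGC-27 and 0.354, 0.612 and 0.209 in AGS, a log2 difference of -4.55 (SE 0.52, adjusted p = 0.0099, edgeR). None of these 4 genes overlapped between the lines.

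GAGE1 and GAGE2A went in opposite directions, and their gene models overlap over 7299 bases of the same strand. Summed over both genes, the CPM (counts scaled by TMM library size) were 14.7, 14.7 and 13.7 in AGS and 48.4, 24.1 and 19.8 in HGC-27. Summed over all 13 GAGE members they were 23.8, 23.3 and 19.8 in AGS and 52.5, 29 and 24.8 in HGC-27. The sums of the family were nearer to each other than the values of either gene. In GAGE2A 46.6% of 100-base words were found in no other gene, in GAGE1 88.7%, in GAGE10 80.6% and in GAGE12H 23.4%, so the assignment of reads among these copies is uncertain.

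The other 9 tested members did not pass. MAGEA3 and MAGEA6, whose proteins bind the ubiquitin ligase TRIM28, share 36.1% of their 100-base words, so the split between them is uncertain. MAGEA6 had 37.2, 42.9 and 40.8 FPKM in AGS and 22.3, 35.7 and 35.2 in HGC-27 (log2 difference 0.29, SE 0.17, adjusted p = 0.36, edgeR), and the lines did not overlap. MAGEA3 had 18.2, 24.8 and 20.8 in AGS and 9.69, 23.2 and 25.4 in HGC-27 (0.12, SE 0.23, adjusted p = 0.78, edgeR), and the lines overlapped.

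PRAME, on chromosome 22, encodes a substrate receptor of CUL2 ubiquitin ligases and a repressor of retinoic acid signalling. Its FPKM was 10.9, 10.2 and 11.7 in AGS and 7.84, 10.6 and 11 in HGC-27, with a log2 difference of 0.06 (SE 0.19, adjusted p = 0.88, edgeR). XAGE2 was low in both lines, between 1.62 and 2.80 FPKM. GAGE12H had 9.43 to 12.5 FPKM in AGS and 3.24 to 9.83 in HGC-27, and GAGE10 had 1.12 to 4.57 in AGS and 0 to 2.86 in HGC-27. CTAGE4, CTAGE6 and CTAGE8, near-identical copies on chromosome 7, each had between 0.222 and 1.87 FPKM.

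The libraries with a disputed line carried the patterns of the line in their file names. The one titled HGC-27 held 444 counts of MAGEA12 and 732 of PASD1, which had 0 in the HGC-27 control and in the undisputed HGC-27 NINJ1 library. The one titled AGS held 0 of both, and 733 counts of MAGEB2 where the undisputed AGS libraries held 0 and 4. Under the titles edgeR called 0 members, with 0 at an unadjusted p under 0.05, and 0 of all genes. On the 4 undisputed libraries 8 of the 9 were called, all but MAGEA1. Without HGC-27 NINJ1 replicate 1 edgeR called 3 (MAGEA12, PASD1 and PAGE1), and without any other 1 NINJ1 library it called 6. MAGEA1 and MAGEB17 were lost each time. Without either control all 9 were called.

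Neighbouring genes on the X chromosome did not share one state. MAGEA12 starts 35.0 kb and MAGEA6 71.0 kb after the start of MAGEA3: MAGEA3 and MAGEA6 were transcribed in both lines, MAGEA12 between them in AGS alone. MAGEA2B and MAGEA2 lie in the same stretch and had at most 1 count in a library, but they share nearly all their sequence with each other. MAGEB3, MAGEB4 and MAGEB1 start 14.9, 26.5 and 28.2 kb after MAGEB2 and had no count in any library. All 3 had 100% of their 100-base words in no other gene. MAGEB4 and MAGEB1 overlap over 464 bases.

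**Figure D3:**
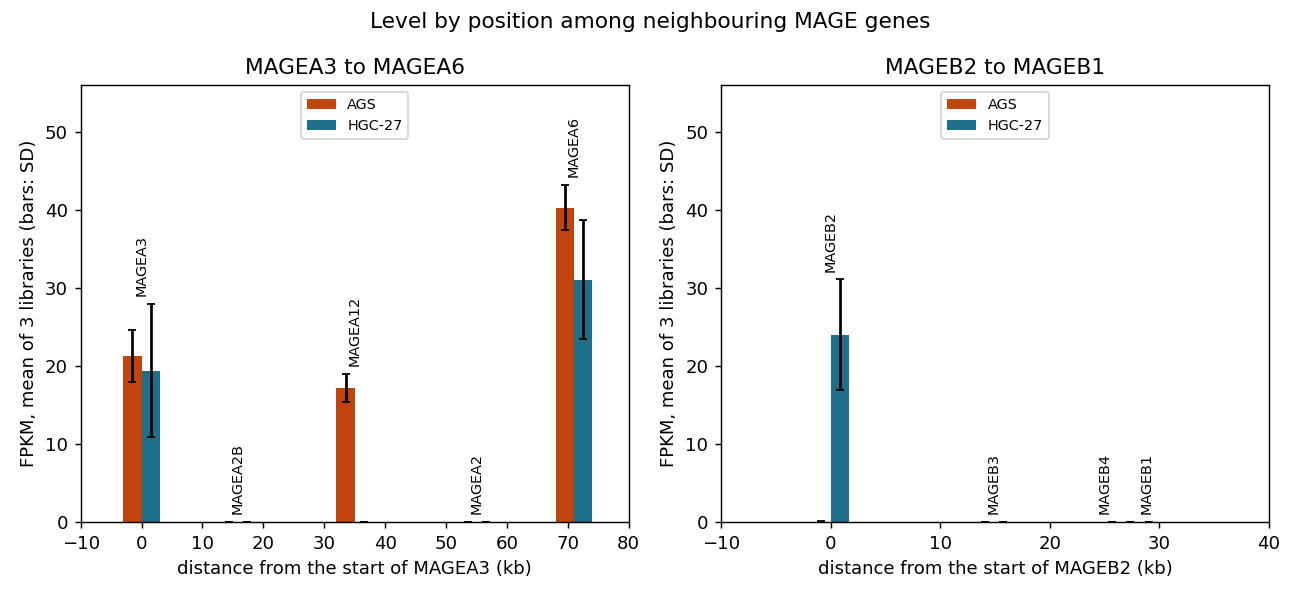
Mean FPKM of 3 libraries per line (bars show SD) against distance from the start of MAGEA3 (left) and of MAGEB2 (right) in kb. MAGEA12 has a bar in AGS alone and MAGEB2 in HGC-27, while MAGEB3, MAGEB4 and MAGEB1 have none.

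The stretches before the start sites of 5 members are given, because these genes set the lines apart (MAGEA12, PASD1, MAGEB2 and PAGE1) or were transcribed in both (MAGEA6). They are from RefSeq on GRCh38.p14, end before the first annotated exon of either annotation, run 5′ to 3′ on the strand of the gene, and have each CG in capitals, the site that DNA methylation marks. They lie at chrX:152733507-152733756 (plus strand), chrX:151563425-151563621 (plus), chrX:30215313-30215559 (plus), chrX:49695994-49696234 (minus) and chrX:152769748-152769939 (minus), in the order listed.
MAGEA12: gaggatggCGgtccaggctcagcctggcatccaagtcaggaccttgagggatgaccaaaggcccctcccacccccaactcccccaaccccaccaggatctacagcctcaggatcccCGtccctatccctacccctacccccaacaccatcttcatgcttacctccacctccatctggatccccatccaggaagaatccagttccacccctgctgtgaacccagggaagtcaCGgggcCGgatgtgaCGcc
PASD1: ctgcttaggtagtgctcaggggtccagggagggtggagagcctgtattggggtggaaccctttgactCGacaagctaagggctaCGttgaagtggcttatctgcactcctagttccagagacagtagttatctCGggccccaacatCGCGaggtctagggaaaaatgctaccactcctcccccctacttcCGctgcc
MAGEB2: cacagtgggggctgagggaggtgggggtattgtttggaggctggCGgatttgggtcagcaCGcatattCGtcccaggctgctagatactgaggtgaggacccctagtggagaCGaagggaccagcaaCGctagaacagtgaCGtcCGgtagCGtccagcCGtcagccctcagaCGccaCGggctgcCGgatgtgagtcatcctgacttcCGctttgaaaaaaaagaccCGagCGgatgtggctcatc
PAGE1: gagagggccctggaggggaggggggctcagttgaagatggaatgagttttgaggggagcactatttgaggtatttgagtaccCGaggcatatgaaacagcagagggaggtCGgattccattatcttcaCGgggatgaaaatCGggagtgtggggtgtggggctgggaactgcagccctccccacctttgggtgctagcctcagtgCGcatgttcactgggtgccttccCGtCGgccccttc
MAGEA6: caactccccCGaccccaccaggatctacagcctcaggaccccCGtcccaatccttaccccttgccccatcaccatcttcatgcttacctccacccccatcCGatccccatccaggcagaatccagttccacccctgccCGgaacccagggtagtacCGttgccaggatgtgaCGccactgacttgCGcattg
These stretches hold 5, 6, 15, 7 and 7 CG sites. Over the full 250 bases before their RefSeq starts they hold 5, 10, 15, 9 and 15, where the median of all 35116 stretches in the table was 11 (quartiles 3 and 23). MAGEA3 and MAGEA6 were 100% identical over those 250 bases. RefSeq had an entry for 61 of the 70 members, and the most upstream was taken. For some members, MAGEA11 and GAGE1 among them, that stretch lies inside the GENCODE gene model. The letters CCGGAA, common in sites of ETS factors, stood on either strand in 4 of the 61 members (6.56%; MAGEA3, MAGEA6, PRAME and MAGEB6) and in 14.5% of all stretches. CCGGAA contains both a CG and the letters GGAA. These matches describe sequence only, and methylation was not measured.

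Within AGS, 1 of the 18 members was called between the libraries labelled NINJ1 and the control. PASD1 had a log2 change of 0.58 (SE 0.19, adjusted p = 0.036, edgeR), with both labelled NINJ1 libraries above the control. Over all genes, 5.73% were higher and 9.3% lower in that contrast. The call was lost when either labelled NINJ1 library was left out and by DESeq2 (adjusted p = 0.24), and over all settings the adjusted p ran from 7.4e-04 to 0.975. The fibroblast markers summed to 10.9 FPKM in the control of AGS and to 3.82 and 3.28 in its labelled NINJ1 libraries. Nearly all of it was COL1A1 (6.91, 3.02 and 2.56) and PDGFRB (3.90, 0.777 and 0.707). COL1A2, COL3A1, DCN and LUM reached at most 0.0632 FPKM in these libraries. The part of these markers in this result was not tested. PAGE1 stood at 1.40 FPKM in the control and at 2.86 and 3.06 (log2 1.02, SE 0.44, adjusted p = 0.12, edgeR).

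Within HGC-27, 5 members were called higher in NINJ1 than in control and 3 lower, where 34% of all genes were higher and 29.1% lower. The members' 8 calls among 18, 3 of which had no count in HGC-27, stand beside a background in which 63.0% of all genes were called. Each call rests on the 1 control that stands apart in GC. Fibroblast markers summed to 1.1 FPKM in that control and to 5.42 and 5.82 in the NINJ1 libraries, and epithelial markers to 208 against 145 and 170. Neither list moved in a single direction. Among the fibroblast markers edgeR called COL1A1 higher and DCN lower in NINJ1, and among the epithelial ones 3 higher and 4 lower. COL1A1 made up most of the fibroblast sums (0.812 FPKM in the control, 5.36 and 5.71 in NINJ1). The part of these markers in the calls of the members was not tested. The median of all tested genes was 0.12, and a correction for GC content brought it to 0.00. With it, 5 members were higher and 4 lower, against 22.5% and 26.1% of all genes.

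MAGEA11 rose under both scalings: log2 1.49 (SE 0.31, adjusted p = 9.7e-05, edgeR) and 0.94 with the GC correction. Its counts were 67 in the control and 202 and 200 in NINJ1. MAGEA3 rose by log2 0.93 (SE 0.18, adjusted p = 2.6e-05, edgeR) and by 0.38 with it, from 315 counts in the control to 601 and 683. MAGEA3 shares 36.1% of its 100-base words with MAGEA6, so the split between them is uncertain. Their summed CPM, without the GC correction, were 73.6 in the control and 102 and 106 in NINJ1. PAGE1 fell by 0.79 on the log2 scale (SE 0.18, adjusted p = 2.6e-04, edgeR) and by 1.18 with the GC correction, from 807 counts to 431 and 569. In all 3 both NINJ1 libraries lay on 1 side of the control. DESeq2 also called these 3 and no other member, where it called 50.2% of all genes.

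GAGE1, GAGE10 and CTAGE4 were also called in 1 direction under both scalings, though not by DESeq2, and GAGE1 and GAGE10 not with the GC correction centred on means. GAGE1 fell by 1.14 on the log2 scale (SE 0.21, adjusted p = 1.3e-05, edgeR) and by 0.51 with the GC correction. GAGE10 fell by 1.89 and by 2.18 with it, and CTAGE4 rose by 1.12 and by 1.72. Other calls depended on the scaling. MAGEA1 (0.51 and 0.24) and GAGE12H (1.06 and 0.76) were called without the correction but not with it. PRAME changed sign, from 0.06 without a call to -0.68 with one. MAGEB2 (0.38 and 0.63) and CTAGE8 (1.08 and 1.67) were called only with it, and MAGEA6 changed sign without a call (0.27 and -0.22).

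**Figure D4:**
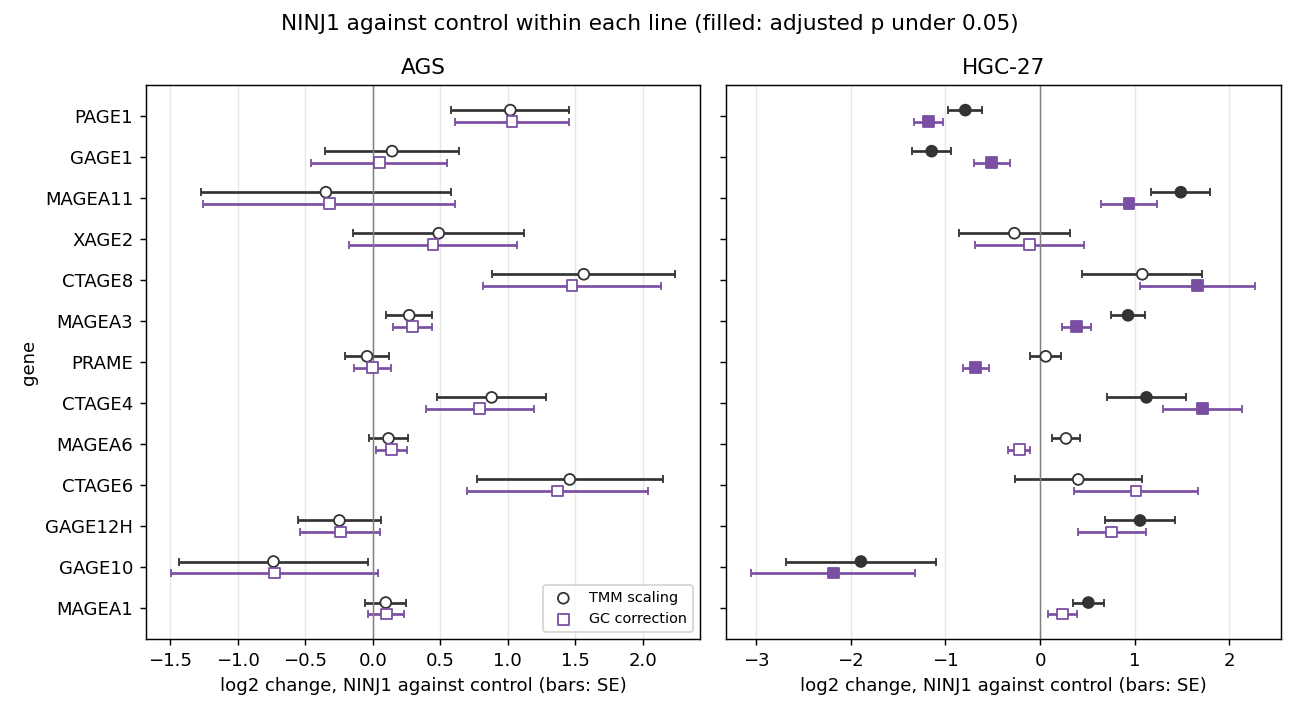
log2 change of NINJ1 against control in AGS (left) and HGC-27 (right, on a wider axis) with its SE, for 13 members (MAGEA12, PASD1, MAGEB17, GAGE2A and MAGEB2, at or near 0 in a line, are left out); circles use TMM scaling, squares the GC correction, and filled symbols have an adjusted p under 0.05. PAGE1, MAGEA11 and MAGEA3 are filled under both scalings in HGC-27, and in HGC-27 PRAME and MAGEA6 lie on opposite sides of 0 under the scalings.

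The change differed between lines for 4 members, by the test of the difference itself, where 23.9% of all genes had a higher change in AGS and 30.2% a lower one. PAGE1 and GAGE1 had the higher change in AGS (log2 1.81 and 1.29), and MAGEA3 and GAGE12H the lower (-0.66 and -1.30). With the GC correction 2 members were called, PAGE1 (2.21, adjusted p = 4.7e-04, edgeR) and PRAME (0.68, adjusted p = 0.0094), against 18.5% and 16.3% of all genes.

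Other germline genes were described from lists. Beside every list, the shares of all genes called between lines were 6.14% by edgeR, 22.2% with the GC correction and 14% by DESeq2. Of 37 further X-linked cancer-testis genes, 10 were tested and 2 were called by edgeR, both higher in AGS. With the GC correction 3 were higher and 2 lower, and DESeq2 called 4. CSAG1 had 93, 105 and 133 counts in AGS and 0 in every HGC-27 library (adjusted p = 0.0094, edgeR), and SAGE1 had 15, 14 and 17 against 0 (adjusted p = 0.049, edgeR). DDX53 had a log2 difference of -2.02 (adjusted p = 0.053, edgeR) and was called with the GC correction (-1.81, adjusted p = 0.012) and by DESeq2. Of 29 autosomal germline genes, 14 were tested and 1 was called by edgeR, while the GC correction called 4 higher and 1 lower and DESeq2 called 5. TDRD9, a helicase of the piRNA pathway, had 1073, 648 and 587 counts in HGC-27 and 1, 0 and 3 in AGS (adjusted p = 0.0034, edgeR). PIWIL2 (log2 3.09) and PIWIL4 (3.89), also of that pathway, had adjusted p values of 0.056 and 0.070 by edgeR, and both were called with the GC correction and by DESeq2. The median log2 difference was -1.01 over the 10 and 0.50 over the 14, against 0.08 over all tested genes.

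The ubiquitous type II MAGE genes, which are not confined to the testis, had 4 tested members of 11. MAGED1 was called, with 255, 255 and 225 counts in HGC-27 and 1, 0 and 0 in AGS (adjusted p = 0.0034, edgeR). MAGED2 (log2 -0.59) passed only with the GC correction (-0.88, adjusted p = 0.0024, edgeR), and MAGEF1 (0.47) did not pass. Of 12 partners of the encoded proteins, edgeR called 0, with 0 at an unadjusted p under 0.05 and 0 by DESeq2. With the GC correction, where 22.2% of all genes were called, CUL2 and ETS1 were higher in AGS.

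Of 37 factors listed for their part in the silencing of germline genes, 36 were tested between lines. This silencing list includes TET1, TET2 and TET3, which oxidise methylated cytosine and so oppose DNA methylation. Counts over the list therefore give no direction of silencing. edgeR called 0, with 4 at an unadjusted p under 0.05 (DNMT3A, SETDB1, E2F6 and UHRF1), and DESeq2 called 2 (DNMT3A and SETDB1). With the GC correction, where 22.2% of all genes were called, E2F6 and UHRF1 were among those higher in AGS, and SETDB1 among those lower. DNMT1, the maintenance methyltransferase, had 186, 203 and 200 CPM in AGS and 174, 206 and 233 in HGC-27 (log2 -0.05, adjusted p = 0.88, edgeR). UHRF1, which recruits it, had 168, 155 and 151 against 63.6, 112 and 123 (log2 0.72, adjusted p = 0.17, edgeR). DNMT3A had 24, 22.0 and 20.9 against 16.0, 9.14 and 10.9 (log2 0.93, adjusted p = 0.084, edgeR), and DNMT3B had 20.8, 28.7 and 24.7 against 12.9, 30.3 and 31.0 (log2 0.09, adjusted p = 0.86, edgeR).

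The same lists were counted between NINJ1 and control. Of all genes in AGS, 5.73% were higher and 9.3% lower by edgeR. With the GC correction 18.2% were called, and by DESeq2 7.42%. In AGS edgeR called 1 further X-linked gene higher (CT45A10), 2 germline genes lower (SYCP2 and PIWIL2) and 1 partner higher (ETS1), of which DESeq2 called 0. edgeR also called 2 genes of the silencing list higher and 1 lower (3 and 4 with the GC correction), and 2 type II MAGE genes lower. DESeq2 called the same 3 genes of the silencing list and 1 of the 2 type II MAGE genes. The GC correction called 4 partners higher and 1 lower.

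In HGC-27, 34% of all genes were higher and 29.1% lower by edgeR, and 22.5% and 26.1% with the GC correction. There edgeR called 1 further X-linked gene higher and 2 lower under both scalings. Germline genes numbered 3 higher and 4 lower, and 2 and 3 with the GC correction. Genes of the silencing list numbered 11 higher and 18 lower, and 9 and 19 with it. Type II MAGE genes went from 2 higher and 0 lower to 1 and 2, and partners from 5 and 5 to 1 and 4. TRIM28, DNMT1 and ELOB were called higher without the correction and lower with it.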

How the data were processed

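Libraries of polyadenylated RNA were deposited as gene tables. Per the file headers, each table holds counts of reads (raw) and FPKM values computed by the authors. HISAT2, HTSeq 0.13.5 and GRCh38 are named in the submitters' processing notes. How multi-mapped reads and strand were handled is not given in the sources used here. FPKM departed from values recomputed from the counts by at most 8.32e-09 (relative) over 6974 genes. The members and lists were chosen with earlier results of these data known. Members with at least 10 counts in a library are named, and of each list up to 3 genes with the smallest p, plus DNMT1, DNMT3A, DNMT3B and UHRF1. The result of 1 gene of the silencing list is not reported here.

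Counts were fitted with edgeR 4.0.16 (R 4.3.3): filterByExpr with a minimum count of 10 by line and treatment, TMM scaling, quasi-likelihood tests, and Benjamini-Hochberg adjustment over 17617 genes with a threshold of 0.05. AGS against HGC-27 used line plus treatment, and the NINJ1 contrasts 1 mean per line and treatment. Lines came from the file names. A GC correction used a spline with 5 degrees of freedom as offset. The grouping of the filter and the centring of that spline were changed after member results had been seen, and the versions run first are kept as alternatives. DESeq2 1.42.0, DESeq2's size factors, no filter, the titled lines, the 4 undisputed libraries, left-out libraries, a replicate block and limma 3.58.1 on log2(FPKM + 1) or log2(FPKM + 0.1) were the other alternatives. Bounds against a line at 0 used 3 counts per library. Words of 100 bases were compared over GENCODE 29 transcripts. RefSeq promoters (GRCh38.p14) were matched by symbol.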

Additional observations from a re-analysis of the deposited data

Results flagged for a closer look

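The change between NINJ1 and control differed between the lines for 4 of the 18 tested members by the interaction test of edgeR. PAGE1 had a difference of 1.81 on the log2 scale (AGS minus HGC-27, SE 0.47, adjusted p = 0.0014), and GAGE1 one of 1.29 (SE 0.53, adjusted p = 0.040). MAGEA3 had -0.66 (SE 0.24, adjusted p = 0.021) and GAGE12H -1.30 (SE 0.48, adjusted p = 0.022). Over all genes 23.9% had a higher change in AGS and 30.2% a lower one, and the median difference was -0.15. Each difference rests on the HGC-27 control that stands apart in GC. With the GC correction the values were 2.21 for PAGE1, 0.56 for GAGE1, -0.09 for MAGEA3 and -1.0 for GAGE12H, and PAGE1 alone of the 4 was called.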

How the results depend on the processing

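All 9 calls between lines were kept under DESeq2, DESeq2's size factors, no filter, both limma scales, the GC correction, and the alternatives chosen after seeing the data (NINJ1 libraries only, the filter grouped by line, the GC correction centred on means). With lines as titled the counts called were 0 between lines, 0 for NINJ1 in AGS, 0 for NINJ1 in HGC-27 (1 at an unadjusted p under 0.05) and 0 for the difference, and PASD1 in AGS changed sign to -0.59. The replicate block left 2 between lines (GAGE1 and GAGE2A; 9 at an unadjusted p under 0.05) and 117 of all genes; the same replicate numbers pair nothing by the labels, and the correlation of their deviations was 0.008. DESeq2 called 0 for NINJ1 in AGS, 3 in HGC-27 and 1 for the difference, and the GC correction left 2 for the difference. Of all genes DESeq2 called 7.42%, 50.2% and 42.5% in these contrasts. Leaving out 1 library gave 3 to 9 between lines, 0 to 1 in AGS, 7 to 10 in HGC-27 and 2 to 6 for the difference. The cause was not tested.

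Over all genes, calls between lines were 1082, against 2459 by DESeq2, 3910 with the GC correction, 3592 centred on means, 0 as titled, 575 on 4 libraries, 6940 on NINJ1 libraries and 114 to 7117 without 1 library. For NINJ1 in AGS 2648 were called, 1308 by DESeq2 and 0 as titled. In HGC-27 11103 were called and 2149 as titled, and the GC correction centred on means split 9152 calls into 6621 higher and 2531 lower. For the difference 9547 were called, 6118 with the GC correction and 0 as titled. Members reaching 1 FPKM were 11 and 10, and 8 and 7 as titled. Each line has 1 control.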
